A study of Mus musculus with 12 samples.

Results

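The proteasome genes were taken as the rows of the deposited array table annotated to exactly 1 symbol made of Psm, a letter from a to g and a number, with the brightest row standing for each symbol. They numbered 46 of the 30142 genes named by such rows, and each had 1 row. Psmb5 and Psme2 lay only on rows that also carry another symbol (Mir686 and Psme2b) and were not analysed here. The arrays (Affymetrix Mouse Transcriptome Array 1.0) measured total RNA of mouse HoxB8-ER cells on a C57BL/6 background. These are bone marrow cells that received a HOXB8-ER transgene, in which the homeobox factor HOXB8 depends on estrogen through a hormone-binding domain. All 6 groups of 2 arrays carried it, and under 0.5 µM estradiol it holds them as immortal promyelocyte-like progenitors. The groups were undifferentiated wild-type cells, undifferentiated Ezh2-/- cells from a littermate, neutrophils made from each by removing estradiol for 6 days, and wild-type neutrophils given GSK343 or its vehicle. GSK343 inhibits EZH2, the histone methyltransferase of Polycomb repressive complex 2. Sample labels give it at 0.5 µM for 9 days, whereas the series text gives 1 µM. Neither the number of lines per genotype nor the origin of the arrays of a group (separate cultures or one) is stated. Genotype and cell line therefore cannot be told apart, and every p-value rests on the spread between arrays, which may be technical alone.

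The proteasome degrades proteins tagged with ubiquitin. Its 20S core holds rings of alpha subunits (Psma genes) around rings of beta subunits (Psmb genes), of which a few are catalytic. The 19S cap (Psmc ATPases and Psmd subunits) recognises and unfolds substrates. In immune cells and under interferon, the immunosubunits encoded by Psmb8, Psmb9 and Psmb10 take the places of the catalytic subunits encoded by Psmb5, Psmb6 and Psmb7. The PA28 activator encoded by Psme1 and Psme2 can open the core, and the peptides produced can be carried by TAP (Tap1 and Tap2) to MHC class I molecules. Neutrophils leave the cell cycle and make less new protein as they mature.

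The promoters of the interferon-responsive members are shown because the values of Psmb8 and Psmb9 are set beside those of their gene neighbours. In RefSeq (GRCm38.p6) the protein-coding genes lie in the order H2-DMb2, H2-DMb1, Psmb9, Tap1, Psmb8, Tap2, H2-Ob on chromosome 17. Psmb9 and Tap1 are divergent neighbours, and the 225 bases between their starts are at chr17:34187331-34187555, read here on the minus strand. The 250 bases before the start of Psmb8 are at chr17:34197945-34198194 (plus strand), those of Psmb10 at chr8:105938393-105938642 (minus strand) and those of Psme1 at chr14:55578244-55578493 (plus strand). Capitals mark matches to the motifs searched on both strands.
Psmb9: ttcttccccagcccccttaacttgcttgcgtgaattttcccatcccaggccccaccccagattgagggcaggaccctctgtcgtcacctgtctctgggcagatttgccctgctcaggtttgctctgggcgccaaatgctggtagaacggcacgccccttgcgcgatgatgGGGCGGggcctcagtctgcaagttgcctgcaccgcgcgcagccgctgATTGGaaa
Psmb8: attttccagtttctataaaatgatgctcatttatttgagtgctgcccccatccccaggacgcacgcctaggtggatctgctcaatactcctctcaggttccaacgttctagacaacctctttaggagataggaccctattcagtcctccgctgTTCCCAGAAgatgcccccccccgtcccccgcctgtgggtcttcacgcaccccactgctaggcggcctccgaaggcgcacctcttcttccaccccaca
Psmb10: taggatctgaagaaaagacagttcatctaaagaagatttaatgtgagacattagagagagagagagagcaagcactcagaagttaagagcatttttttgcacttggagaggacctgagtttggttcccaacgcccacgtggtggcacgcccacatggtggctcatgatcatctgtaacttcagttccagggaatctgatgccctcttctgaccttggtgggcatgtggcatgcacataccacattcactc
Psme1: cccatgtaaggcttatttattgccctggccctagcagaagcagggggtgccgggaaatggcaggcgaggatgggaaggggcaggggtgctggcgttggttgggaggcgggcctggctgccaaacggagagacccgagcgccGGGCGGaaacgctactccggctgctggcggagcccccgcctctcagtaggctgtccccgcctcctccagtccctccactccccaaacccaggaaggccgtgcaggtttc
Psmb8 held 1 match to the STAT motif GAS (TTCNNNGAA), which 7.02% of the 32851 promoters in the table and 2 of the 38 members found there also held (Psmb8 and Psmg1). Psmb9 held a GC box (GGGCGG) and a CCAAT box, and Psme1 held a GC box. GC boxes were in 21 of the 38 members' promoters (55.3%) against 32.7% of all promoters, and CCAAT in 14 of 38 against 33.8%. The interferon motif ISRE (GAAA, any 2 bases and GAAA again) was matched in 3 of 38 members against 2.98% of all promoters, and the antioxidant motif ARE (TGACNNNGC) in 4 of 38 against 10.2%. The printed Psmb10 window held none of these letter strings.

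Values are log2 signals, and a value of 1 on this scale is a 2-fold difference. The 8 arrays of the genotype groups had medians of 4.54 to 4.65, and the 4 of the drug groups had medians of 3.88 to 3.96, so levels are compared within each array range. Background was set from antigenomic control probe sets, at their 95th percentile, and lay between 4.83 and 5.79. Of the 46 members, 42 lay above it on every array, Psmd9 on 6 arrays, and Psma8, Psmb11 and Psmg3 on no array. Psma8 encodes a testis alpha subunit and Psmb11 a thymic beta subunit. The 12 neutrophil markers lay above background on all neutrophil arrays, and 6 to 8 of them on undifferentiated arrays. The 8 progenitor markers were the reverse in level, with a summed log2 signal of 18.42 to 18.91 in undifferentiated cells against 10.53 to 13.84 in the neutrophils of that array range. In bulk samples, fewer cells of a type and less RNA per cell cannot be told apart.

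Some libraries stood apart or went against their labels. Ezh2 itself was at 11.57 and 11.65 in undifferentiated wild-type cells and at 9.10 and 9.44 in undifferentiated Ezh2-null cells (log2 fold change −2.34, SE 0.155, limma adjusted p = 5.5e-05). In neutrophils it was at 8.31 and 8.34 in wild type and at 8.74 and 9.02 in those labelled Ezh2-null, so the second label is not borne out by a lower Ezh2 signal (log2 fold change 0.55, adjusted p = 0.0501). That group is called the neutrophils labelled Ezh2-null throughout. Compared with wild-type neutrophils, this group was also higher in markers of other cell types and of division. The summed log2 signal of 8 erythroid markers was 17.52 to 17.76 there against 7.994 to 8.004 in wild-type neutrophils, with 8 of 8 and 1 of 8 above background. That of 9 mast cell and basophil markers was 19.39 to 19.42 against 12.08 to 13.64, and that of 7 genes of dividing cells 17.40 to 17.62 against 14.17 to 15.12. These sums were also high in undifferentiated cells. In wild type they were 15.52 to 15.58 (erythroid), 18.81 to 18.90 (mast cell and basophil) and 16.85 to 17.15 (dividing). In Ezh2-null they were 15.28 to 15.71, 18.01 to 18.34 and 16.38 to 16.99. Of the erythroid markers, 1 of 8 lay above background there in both genotypes. Among the members, undifferentiated Ezh2-null array 1 lay above array 2 for 44 of 46 (median gap 0.59, largest 1.15 for Psmc5), while the median gap over all rows was 0.01. In the other 5 groups the median gap between arrays over the members lay between −0.03 and 0.08. Counts of called members that use the undifferentiated Ezh2-null arrays are therefore given with and without each. For some of the members singled out there, the call is given in the same way.

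Differentiation of wild-type cells was examined first. Transcripts for 35 of the 46 members fell in neutrophils and none rose (limma, Benjamini-Hochberg adjusted p under 0.05). Of all rows tested 12.2% fell and 13.0% rose, and of rows with a mean above background 29.3% fell. The median log2 fold change of the members was −1.22, against 0.03 over all rows tested. Psmg3, 1 of the 35, was under background in both groups, so its change (−0.39) is that of a dim row. The 11 members that did not pass were Psma8, Psmb2, Psmb6, Psmb11, Psmd2, Psmd8, Psmd9, Psmd10, Psme1, Psme4 and Psmf1.

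Of the roles, the assembly chaperones of the 20S core, which help to build the alpha ring, had the lowest median (−2.06), with all 4 called. That median rests on Psmg1 and Psmg2. Psmg4 and Psmg3 fell less than the median member, and Psmg3 (−0.39) was under background in both groups. Psmg2 was at 11.42 and 11.53 in undifferentiated cells and at 7.86 and 8.35 in neutrophils. It fell 10.3-fold (log2 fold change −3.37, SE 0.194, adjusted p = 3.47e-06). Its dimer partner Psmg1 was at 9.94 and 10.12 before and at 6.80 and 7.29 after differentiation, a 7.89-fold fall (log2 fold change −2.98, SE 0.253, adjusted p = 2.81e-05). For both genes the neutrophil arrays lay far below the undifferentiated arrays. Pomp, the maturation factor that acts after them, fell as well (log2 fold change −1.35, SE 0.233, adjusted p = 0.00197).

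In the 20S core, 7 of 8 alpha subunits fell (median −1.26), Psma8 being the exception. Psma5 was at 11.46 and 10.99 in undifferentiated cells and at 8.85 and 9.24 in neutrophils, a 4.53-fold fall (log2 fold change −2.18, adjusted p = 0.000249). Of the 6 constitutive beta subunits measured, 4 fell (median −0.85). Psmb7, the constitutive trypsin-like subunit, was at 13.27 and 13.06 before and at 11.87 and 11.84 after (log2 fold change −1.30, SE 0.289, adjusted p = 0.00852). Psmb6, the constitutive caspase-like subunit, was at 10.06 and 10.27 before and at 9.67 and 9.73 after, with no overlap but a change that did not pass (−0.47, adjusted p = 0.186).

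In the 19S cap, all 6 ATPases that unfold substrates fell (median −1.51), as did 9 of 11 non-ATPase subunits (median −1.04). Psmd7, a lid subunit that pairs with the deubiquitinase subunit Psmd14, was at 13.75 and 13.66 before and at 10.91 and 11.30 after. This 6.08-fold fall (log2 fold change −2.60, SE 0.166, adjusted p = 6.03e-06) was the third largest among the members. Psmd2, a base scaffold subunit, and Psmd8 had values of −0.29 and 0.00 and did not pass. Of the cap's assembly chaperones, Psmd5 fell (log2 fold change −1.98, adjusted p = 5.21e-05), and Psmd9 and Psmd10 did not pass.

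The immunosubunits fell too. Psmb8 was at 10.79 and 10.32 in undifferentiated wild-type cells and at 8.47 and 8.90 in neutrophils, a 3.65-fold fall (log2 fold change −1.87, SE 0.265, adjusted p = 0.000615). Psmb9 went from 8.81 and 8.75 to 7.55 and 7.54, a 2.35-fold fall (log2 fold change −1.23, SE 0.21, adjusted p = 0.00188). Psmb10 went from 9.35 and 9.03 to 8.21 and 8.46 (log2 fold change −0.86, adjusted p = 0.0419). The call of Psmb10 was lost when only the 8 genotype arrays were fitted (adjusted p = 0.0641) and without any 1 of the 4 arrays compared (adjusted p from 0.0723 to 0.220). All 3 had neutrophil arrays below every undifferentiated array. Psme1, the PA28 alpha subunit, was at 10.08 and 9.83 before and at 9.33 and 9.50 after and did not pass (−0.54, adjusted p = 0.188), whereas Psme3, the nuclear PA28 gamma subunit, fell (−1.65, adjusted p = 0.000216). The proteasome inhibitor gene Psmf1 (PI31) and the activator gene Psme4 (PA200) both had values of −0.17 and did not pass.

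Other lists bear on the same pathway. Of 10 further proteasome factors measured, 6 fell and none rose, led by the cap deubiquitinase Uchl5 (log2 fold change −2.59, adjusted p = 1.9e-05) and the cap-bound thioredoxin Txnl1 (−1.75, adjusted p = 0.000117). Of 8 measured genes of ubiquitin supply and the p97 unfoldase, 5 fell and 1 rose, with Rad23b, a shuttle of ubiquitylated proteins, at −1.50 and the p97 gene Vcp at −1.06. Of 6 genes of transcriptional control, 4 rose, among them Nfe2l2 (NRF2), which drives antioxidant and proteasome genes, by 2.24 (SE 0.213, adjusted p = 5.25e-05), and Stat3 by 1.80 (adjusted p = 0.0018). The value of Nfe2l1 (NRF1), the factor known to drive proteasome genes when the proteasome is inhibited, was −0.40 and did not pass (adjusted p = 0.0668). Of 14 measured interferon signalling genes 13 rose, and of 21 interferon-stimulated genes 12 rose, while Psmb8 and Psmb9 fell. The 2 wild-type neutrophil arrays differed in the interferon-stimulated list, with summed log2 signals of 12.13 and 13.36 and Oas2 at 7.81 and 11.20. All 7 genes of dividing cells fell (median −3.39). Their part in the fall of the proteasome genes was not tested.

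**Figure D1:**
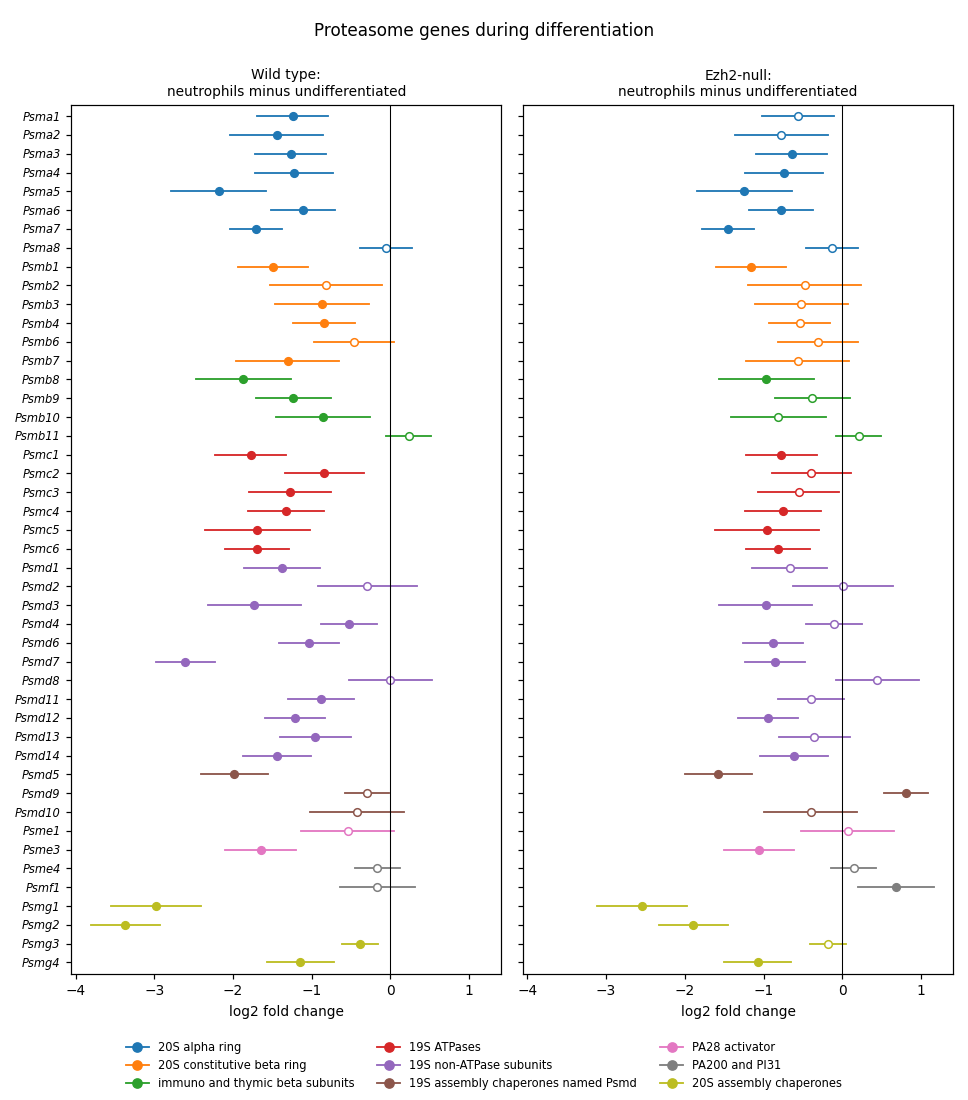
Log2 fold change on differentiation (x axis, neutrophils minus undifferentiated cells) of the 46 members (y axis), in wild-type cells on the left and Ezh2-null cells on the right, coloured by role. Points are limma estimates from 2 arrays a group, lines are 95% confidence intervals and filled points passed an adjusted p of 0.05. Points lie left of 0 for 45 members in wild type and for 39 in Ezh2-null, where 35 and 21 fell.

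In cells carrying the Ezh2-null label, 21 members fell on differentiation and 2 rose, with a median of −0.63 against 0.01 over all rows. Of all rows 10.7% fell and 11.7% rose, and of rows with a mean above background 24.6% fell. All 21 had also fallen in wild type, where they make up 21 of 35. The 2 comparisons share no arrays, but both use a spread fitted over all 12 arrays, so their calls are not independent. The share of all rows that fell in both was not counted. The fallen members again included Psmg1 (log2 fold change −2.54, 5.81-fold, adjusted p = 0.000116), Psmg2 (−1.89, adjusted p = 0.000137), Psmd5 (−1.57, adjusted p = 0.000334) and Psma7 (−1.45, adjusted p = 0.000116). Of the 14 members that fell in wild type and did not pass here, Psmb9 had a value of −0.38 (adjusted p = 0.266), Psmb10 of −0.81 (adjusted p = 0.0577) and Psmb7 of −0.57 (adjusted p = 0.223). Psmb10 did pass with quantile normalization (limma adjusted p = 0.0325), median centring (0.0436), dim rows left out (0.0354) and rows with 1 symbol only (0.0478). Without undifferentiated Ezh2-null array 2, the values of Psmb10 and Psmb7 were −1.12 and −1.10. Psmb8 fell (−0.96, adjusted p = 0.0283), from 9.04 and 8.29 to 7.54 and 7.85. Psmd9 rose by 0.81 (adjusted p = 0.00143) and Psmf1 by 0.68 (adjusted p = 0.047). The count depends on the undifferentiated Ezh2-null array used: 11 fell and 2 rose without array 1 (median −0.36), and 34 fell and 1 rose without array 2 (median −0.97). The call of Psmb8 was lost without array 1 (−0.59, adjusted p = 0.167) and without either neutrophil array, and that of Psmf1 without either undifferentiated array or without neutrophil array 2 (0.43, adjusted p = 0.284).

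The difference between the genotypes in this change was tested as an interaction. It was positive for 44 of 46 members (median 0.48, against −0.02 over all rows), meaning a smaller fall or a larger rise in the cells labelled Ezh2-null, but it passed for 3 of them. Of all rows 2.77% passed in this direction, and of rows with a mean above background 6.12%. The 3 were Psmd7 (1.75, SE 0.235, adjusted p = 0.00385), Psmg2 (1.47, SE 0.275, adjusted p = 0.0182) and Psmd9 (1.11, SE 0.175, adjusted p = 0.00824), whose wild-type neutrophil arrays were not above background, so that its value is no measured size. The call of Psmg2 was lost when only the 8 genotype arrays were fitted (adjusted p = 0.0644), without either undifferentiated wild-type array (0.0557 and 0.0767) and without neutrophil array 2 labelled Ezh2-null (0.0696). For Psmb8 (0.91, adjusted p = 0.281) and Psmb9 (0.86, adjusted p = 0.18) no difference between the genotypes was shown. Without undifferentiated Ezh2-null array 1 the interaction passed for 13 members (median 0.83), and without array 2 for 3 (median 0.20).

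Genotype in undifferentiated cells was compared next. The members as a whole lay at 0 (median log2 fold change 0.00, 24 above and 22 below 0), and 3 of 46 passed, against 2.99% of all rows and 5.39% of rows with a mean above background. The immunosubunits Psmb8 and Psmb9 were lower in the Ezh2-null cells, and the cap chaperone Psmd5 was higher. Psmb8 was at 10.79 and 10.32 in wild-type and at 9.04 and 8.29 in Ezh2-null cells, a 3.72-fold fall (log2 fold change −1.90, SE 0.265, adjusted p = 0.00458). Psmb9 was at 8.81 and 8.75 against 7.37 and 6.83, a 3.2-fold fall (log2 fold change −1.68, SE 0.21, adjusted p = 0.0025). For both, each Ezh2-null array lay more than 1 log2 unit below each wild-type array. Psmd5 was at 12.14 and 12.67 in wild type and at 13.21 and 13.56 in Ezh2-null cells (log2 fold change 0.98, SE 0.188, adjusted p = 0.0248).

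The third immunosubunit behaved otherwise. Psmb10 was at 9.35 and 9.03 in wild type and at 9.32 and 8.70 in Ezh2-null cells, overlapping, with a difference of −0.19 (95% confidence interval −0.79 to 0.41). Psme1 was at 10.08 and 9.83 against 10.43 and 9.62 (0.06, interval −0.53 to 0.66). The constitutive counterparts overlapped as well, Psmb6 at 10.06 and 10.27 against 10.69 and 9.995, and Psmb7 at 13.27 and 13.06 against 13.95 and 12.88. Setting Psmb9 against Psmb6, whose place it takes, the difference between the genes moved by −1.86 between genotypes, and that of Psmb10 against Psmb7 by −0.44. Without Ezh2-null array 1 these were −1.78 and −0.21, and without array 2 they were −1.94 and −0.67. With 2 arrays a group the exact two-sided permutation p of each was 0.333, the smallest this design allows. The same 2 differences moved by −0.77 and 0.45 on wild-type differentiation and by −1.16 and −1.13 between the genotypes in neutrophils (exact permutation p = 0.333 each). On differentiation with the Ezh2-null label they moved by −0.072 and −0.24 (exact permutation p = 0.667 each). With GSK343 against vehicle they moved by −0.63 (exact permutation p = 0.333) and 0.14 (exact permutation p = 1).

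The calls of Psmb8 and Psmb9 held without undifferentiated Ezh2-null array 1 and without array 2. Fitted on only the 4 arrays compared, no member passed (Psmb8 adjusted p = 0.163, Psmb9 adjusted p = 0.0939), with the direction unchanged, and without wild-type array 1 Psmb8 missed the threshold (−1.66, adjusted p = 0.0509). Without Ezh2-null array 1, 5 members passed (Psmc1 and Psmg4 in addition) and the median was −0.29. Without array 2 the median was 0.27 and Psmd5 no longer passed, nor did it when only the 8 genotype arrays were fitted.

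**Figure D2:**
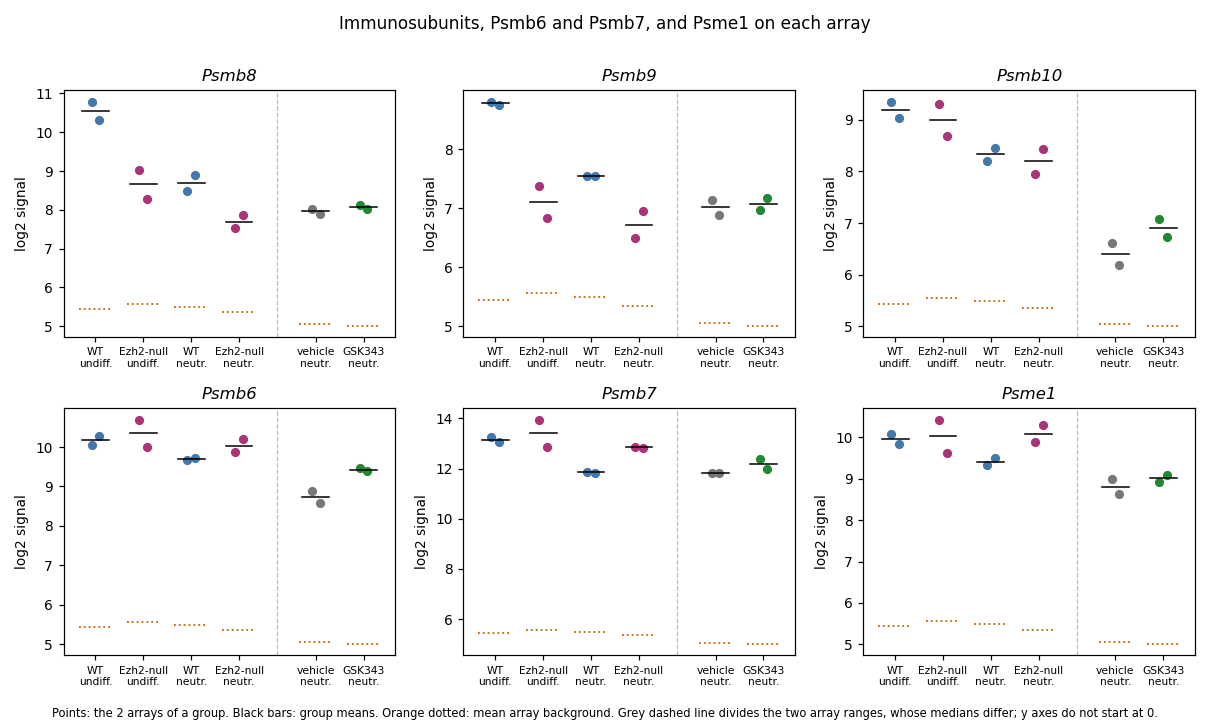
Log2 signal (y axis) of the immunosubunit genes Psmb8, Psmb9 and Psmb10, the constitutive Psmb6 and Psmb7, and Psme1 in the 6 groups (x axis), with both arrays of a group as points, group means as black bars and mean array background as orange dotted lines. The drug arrays stand right of the grey line because their medians differ. For Psmb8 and Psmb9, Ezh2-null points lie below wild-type points at both stages, and for Psmb10 they overlap.

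Genes that work downstream of the immunosubunits were lower in the same undifferentiated cells. Of 14 measured genes of MHC class I presentation, 7 fell and none rose (median −0.85, against −0.01 over all rows). Tap1, the divergent neighbour of Psmb9, was at 11.84 and 11.45 in wild type and at 9.33 and 9.45 in Ezh2-null cells (log2 fold change −2.25, SE 0.249, adjusted p = 0.00116). Tap2 went from 11.14 and 10.50 to 9.09 and 9.01 (−1.77, SE 0.207, adjusted p = 0.00167). The class I heavy chains H2-D1 (−2.04, adjusted p = 0.000243) and H2-K1 (−1.86, adjusted p = 0.00394) fell by similar amounts, and their probes may share signal because the genes are close copies. Tapbpl, Erap1 and Calr were the remaining 3. The adjacent genes Psmb9, Tap1, Psmb8 and Tap2 all fell in this comparison, and for none of them did the groups overlap. Among 14 measured interferon signalling genes, the receptor chains Ifngr1 (−1.17, adjusted p = 0.0127) and Ifnar2 (−0.97, adjusted p = 0.0016) fell. Of 21 interferon-stimulated genes 1 rose, Mx2, by at least 10.2-fold, and 1 fell, Ifih1 (−1.77, adjusted p = 0.0306). No gene of dividing cells passed, and the summed signals of mast cell markers were 18.01 to 18.34 in Ezh2-null against 18.81 to 18.90 in wild-type cells. Of these 9 mast cell and basophil markers 2 were called higher and 1 lower (values from −4.67 to 2.84). Of 12 neutrophil markers 2 were called higher and 1 lower (−6.43 to 3.66). Of 8 progenitor markers 2 were called lower and none higher (−4.00 to 1.04), and of 8 erythroid markers 1 was called higher. The summed signal of 8 monocyte and macrophage markers was 8.88 to 9.26 in Ezh2-null against 12.80 to 13.25 in wild-type cells, with 3 to 4 and 4 of the 8 above background. Most of the wild-type sum was Ccr2, a chemokine receptor gene, at 12.48 and 13.01 against 6.79 and 5.28, and 2 of the 8 markers were called lower (median −0.12, 3 of 8 above 0). The part of these lists in the fall of Psmb8 and Psmb9 was not tested.

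**Figure D3:**
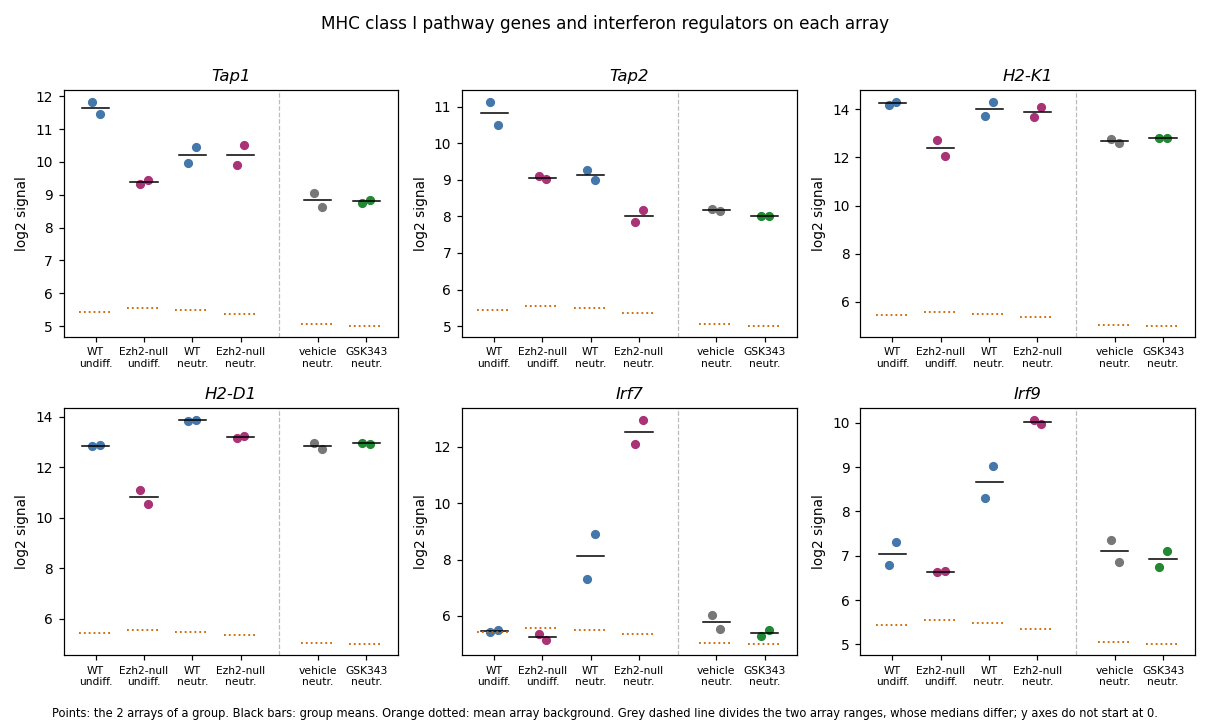
Log2 signal (y axis) of Tap1, Tap2, H2-K1, H2-D1, Irf7 and Irf9 in the 6 groups (x axis), drawn as for the immunosubunits. In undifferentiated cells the Ezh2-null points of the first 4 genes lie below the wild-type points, and in neutrophils Irf7 and Irf9 are higher in those labelled Ezh2-null.

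In neutrophils the genotype comparison called 11 of 46 members, 9 higher and 2 lower in those labelled Ezh2-null, with a median of 0.47 against −0.03 over all rows. Of all rows 11.8% were called, 6.75% higher and 5.06% lower, and of rows with a mean above background 14.9% and 12.2%. The higher members were the core subunit Psma5, the cap subunits Psmc6 and Psmd7, the cap chaperones Psmd5 and Psmd9, the core chaperones Psmg1 and Psmg2, the activator Psme4 and the inhibitor Psmf1. No constitutive beta subunit passed in this fit. Psmb7 passed on the 4 compared arrays (limma adjusted p = 0.0172), with dim rows left out (0.0345) and with rows of 1 symbol only (0.0441). Psmb8 and Psmb9 were the 2 lower members. Fitted on the 8 genotype arrays alone, 7 passed, without Psmb8, Psmb9, Psme4 and Psmg1.

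Psmg2 was at 7.86 and 8.35 in wild-type neutrophils and at 9.95 and 10.35 in those labelled Ezh2-null (4.11-fold higher, log2 fold change 2.04, adjusted p = 0.000213). Psmd7 was at 10.91 and 11.30 against 12.58 and 12.71 (2.92-fold, log2 fold change 1.55, adjusted p = 0.000415). For both genes the neutrophils labelled Ezh2-null lay between wild-type neutrophils and undifferentiated cells. Psmd5 was at 10.42 and 10.42 against 11.74 and 11.87 (2.62-fold, log2 fold change 1.39, adjusted p = 0.00145), and it was also higher in undifferentiated Ezh2-null cells. Psmf1 was at 7.56 and 7.86 against 8.84 and 9.34 (2.61-fold, log2 fold change 1.38, adjusted p = 0.00281). Psmd9 was not above background in wild-type neutrophils (5.48 and 5.31) and was at 6.61 and 6.71 in those labelled Ezh2-null, at least 2.24-fold higher (adjusted p = 0.000245, with a fitted log2 difference of 1.26). Unlike Psmg2 and Psmd7, Psmd9 and Psmf1 were above their undifferentiated levels in this group.

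**Figure D4:**
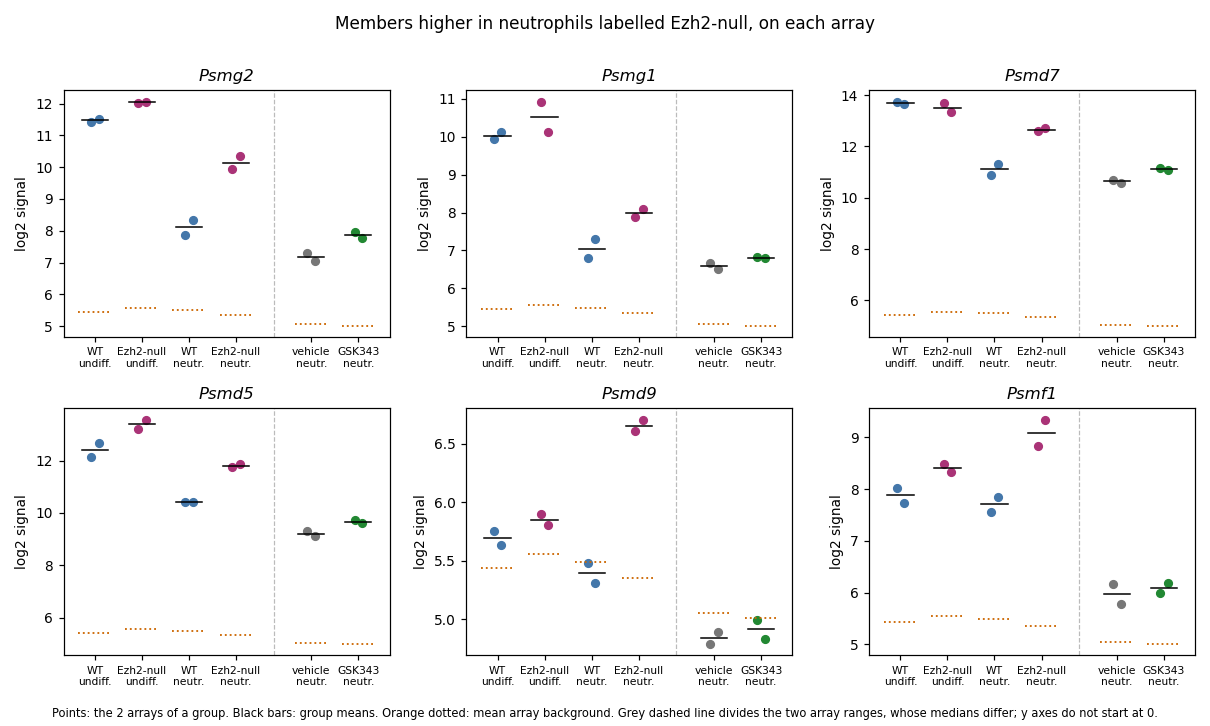
Log2 signal (y axis) of 6 of the 9 members that were higher in neutrophils labelled Ezh2-null, in the 6 groups (x axis), drawn as for the immunosubunits. For Psmg2, Psmg1, Psmd7 and Psmd5 these neutrophils lie between wild-type neutrophils and undifferentiated cells, and for Psmd9 and Psmf1 they are the highest of the 4 genotype groups.

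Psmb8 was at 8.47 and 8.90 in wild-type neutrophils and at 7.54 and 7.85 in those labelled Ezh2-null (1.99-fold lower, log2 fold change −0.99, adjusted p = 0.0418). Psmb9 was at 7.55 and 7.54 against 6.49 and 6.96 (1.77-fold lower, log2 fold change −0.82, adjusted p = 0.0343). The groups did not overlap for either gene. Both calls were near the threshold and were lost when only the 8 genotype arrays or only the 4 arrays compared were fitted, while the direction stayed. Psmb10 overlapped at 8.21 and 8.46 against 7.96 and 8.44 (−0.14, 95% confidence interval −0.74 to 0.46). Psme1 was at 9.33 and 9.50 against 9.89 and 10.29 (0.68, adjusted p = 0.155), Psmb6 at 9.67 and 9.73 against 9.87 and 10.20 (0.34, adjusted p = 0.46), and Psmb7 at 11.87 and 11.84 against 12.86 and 12.84 (0.99, adjusted p = 0.0593).

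The lower Psmb8 and Psmb9 stood beside higher interferon-stimulated genes in the same arrays. Of 21 measured, 20 were higher in the neutrophils labelled Ezh2-null (median 2.60). Usp18 was higher by 5.71 (SE 0.606, limma adjusted p = 0.00039), Ifit1 by 5.43 (SE 0.428, adjusted p = 7.51e-05), Rsad2 by 5.28 and Oasl2 by 5.02. The summed log2 signals of the list were 15.81 to 16.45 in this group against 12.13 to 13.36 in wild-type neutrophils, whose 2 arrays differed. Irf7, which amplifies type I interferon, was at 7.32 and 8.91 in wild-type neutrophils and at 12.11 and 12.97 in those labelled Ezh2-null (log2 fold change 4.42, SE 0.458, adjusted p = 0.000334), and Irf9 was higher by 1.36 (adjusted p = 0.0117). Of the MHC class I genes, Tap2 (−1.12, adjusted p = 0.00762) and H2-D1 (−0.66, adjusted p = 0.0385) were lower, and Tap1 did not differ beyond the spread (−0.01, adjusted p = 0.996). The interaction passed for Tap1 (2.25, SE 0.352, adjusted p = 0.00799), so its genotype difference was not equal at the stages. The receptor chains Ifnar1 (−0.99, adjusted p = 0.0115), Ifnar2 (−0.81, adjusted p = 0.00165) and Ifngr1 (−0.79, adjusted p = 0.0321) were lower. Nfe2l2 was lower as well (−1.23, SE 0.213, adjusted p = 0.00538), and of the further proteasome factors Txnl1 (1.27, adjusted p = 0.00248) and Uchl5 (0.92, adjusted p = 0.0184) were higher. The erythroid, mast cell and dividing-cell lists given above were called in full in this comparison (8 of 8, 9 of 9 and 7 of 7 higher). Of 8 progenitor markers 4 were higher (median 1.58), with summed signals of 13.23 to 13.84 against 10.53 to 10.63. Of 12 neutrophil markers 4 were lower (median −0.81), among them the granule gene Camp (−4.74), and the summed signals were 20.21 to 20.72 against 20.82 to 21.40. Of 8 monocyte and macrophage markers 3 were lower (median −2.14), with 15.28 to 15.78 against 16.49 to 17.64. The part of these lists in the higher and lower proteasome genes was not tested.

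**Figure D5:**
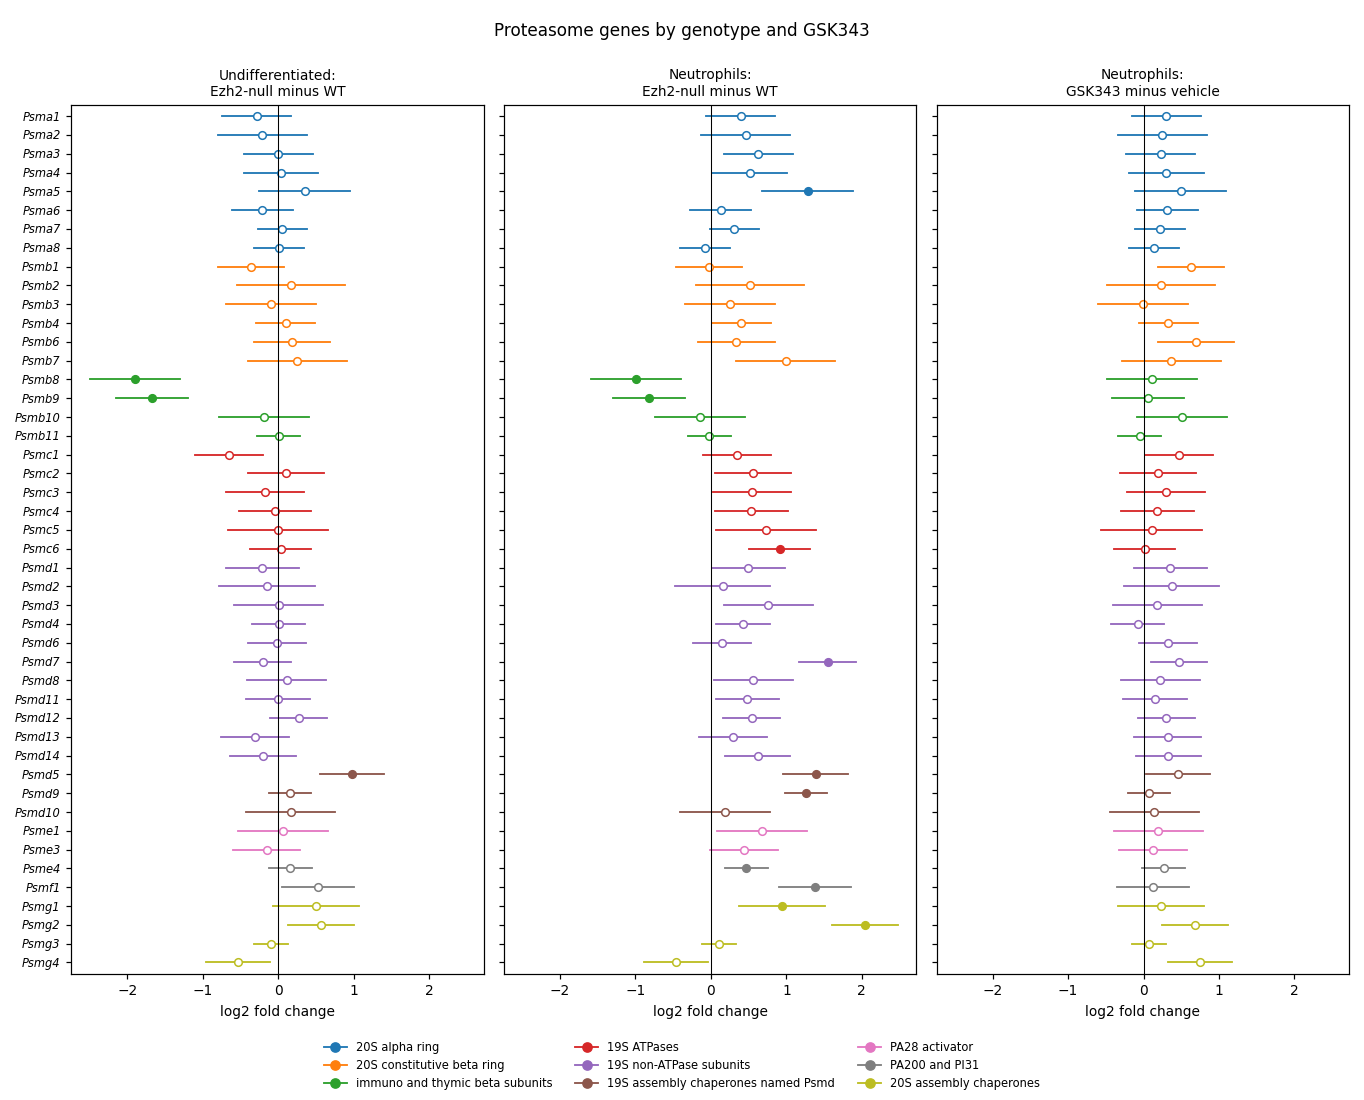
Log2 fold change (x axis) of the 46 members (y axis) for Ezh2-null minus wild type in undifferentiated cells and in neutrophils, and for GSK343 minus vehicle, with 95% confidence intervals and colours by role. Filled points passed an adjusted p of 0.05. The panels hold 3, 11 and 0 filled points, and medians of 0.00, 0.47 and 0.24.

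GSK343 was compared with vehicle in wild-type neutrophils. No member passed (limma), as against 0.00152% of all rows. An unadjusted limma p under 0.05 was held by 7 of 46 members and by 3963 of the 65956 rows tested. The 7 were Psmb1, Psmb6, Psmc1, Psmd5, Psmd7, Psmg2 and Psmg4. The value was above 0 for 43 of 46 members (median 0.24, against 0.00 over all rows). Psmg4, a core chaperone, had the largest value, at 6.39 and 6.30 with GSK343 against 5.59 and 5.61 with vehicle (0.75, SE 0.189, adjusted p = 0.432). Psmg2 followed among the chaperones with 7.96 and 7.77 against 7.30 and 7.06 (0.69, adjusted p = 0.519). Psmb6 was at 9.47 and 9.39 against 8.88 and 8.59 (0.69, adjusted p = 0.632). These groups did not overlap, but the differences did not pass over the whole table. Markers of cell state moved beside them. All 7 genes of dividing cells had values above 0 with GSK343 (median 0.59), with summed signals of 16.56 to 16.89 against 15.95 to 16.30. So did the 8 progenitor markers (median 0.92, sums of 12.09 to 12.16 against 10.76 to 10.86). The 12 neutrophil markers had values below 0, from −3.90 to −0.03 (median −0.39). The lowest was that of Mmp8, at 14.28 and 14.36 with GSK343 against 18.29 and 18.16 with vehicle. No dividing-cell, progenitor or neutrophil marker passed. Of 9 mast cell and basophil markers 1 passed, and the values of the 9 ran from −0.71 to 2.99 with 1 below 0 (median 0.36). The 1 was Cpa3, at 14.88 and 14.79 against 11.76 and 11.93 (2.99, limma adjusted p = 0.0187). That call was lost without any 1 of the 4 arrays compared (adjusted p from 0.0703 to 0.427) and when only those 4 were fitted (0.0666). Of 4 eosinophil markers measured none passed, and their values ran from −0.60 to 3.66 with 1 below 0. The largest was that of the granule gene Prg2, at 14.51 and 14.12 against 11.08 and 10.22. The part of these markers in the values of the members was not tested.

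Psmb8 was at 8.12 and 8.03 with GSK343 and at 8.03 and 7.89 with vehicle (0.11, 95% confidence interval −0.48 to 0.71), and Psmb9 at 6.97 and 7.18 against 7.15 and 6.88 (0.06, interval −0.41 to 0.54). The GSK343 and vehicle arrays overlapped for both. Psmb10 was at 7.08 and 6.73 against 6.62 and 6.18 (0.51, adjusted p = 0.902), and Psme1 at 8.92 and 9.09 against 8.99 and 8.63 (0.19). Ezh2 was at 9.33 and 9.28 with GSK343 and at 8.78 and 9.02 with vehicle. No gene of MHC class I presentation, interferon signalling or interferon-stimulated lists passed.

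The genotype difference in neutrophils was last set against the drug difference, each within its array range. The 2 differed for 4 members against 3.30% of all rows and 7.18% of rows with a mean above background. The genotype difference was the larger for Psmg2 (1.35, limma adjusted p = 0.0317), Psmd9 (1.19, adjusted p = 0.00677) and Psmd7 (1.07, adjusted p = 0.0432), and the smaller for Psmg4 (−1.21, adjusted p = 0.0448). Under a replicate block the calls of Psmg4 (adjusted p = 0.102) and Psmd7 (adjusted p = 0.100) were lost. With an intensity trend and a robust prior, only Psmd9 passed. For Psmb8 (−1.10, adjusted p = 0.201) and Psmb9 (−0.88, adjusted p = 0.198) the test of this difference did not pass. Psmd9 was not above background in the wild-type, GSK343 and vehicle neutrophils, so its value is set against dim rows and is no measured size. Leaving out single arrays kept 1 to 3 of the 4 calls.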

How the data were processed

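Total RNA of 6 groups was measured on 2 arrays each. The authors deposited a log2 signal for every row, a scale read from the range of the values. Per the submitters' processing notes, they used the Transcriptome Analysis Console and Affymetrix Expression Console. Software versions, summarisation and background correction were not given in the sources used here. No further normalization was applied. Of 72688 rows, 6732 control rows were left out, and 65956 were tested. Of these, 30604 carried 1 symbol, 2146 several and 33206 none, and 22818 were matched to a RefSeq gene table (GRCm38.p6), which updated 827 symbols. RefSeq also gave the promoters.

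The main model gave each of the 6 groups a mean over all 12 arrays and was fitted by limma 3.58.1 under R 4.3.3, using lmFit then eBayes (6 residual and 3.06 prior degrees of freedom). A row was called at a Benjamini-Hochberg adjusted p under 0.05 over all 65956 rows. On simulated data for wild-type differentiation, with 200 of 65956 rows changed, 30% of 2-fold and 85% of 4-fold changes were recovered. In the data 16664 rows passed for that comparison, so the p cutoff was looser than in the simulation. Those shares therefore do not give the recovery in the data. The number of arrays, 2 a group, limits the precision. Background was the 95th percentile of 23 antigenomic probe sets. Where the dimmer group lay at or under it on both arrays, a fold is written "at least", from the higher of background and signal on each array. Such a fold depends on this choice, since the negative control median, 5.19 to 6.60, lay above this background on most arrays. Summed signals are the log2 of the sum of linear signals over a list.

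Members were grouped by role. Values on every array are given for the immunosubunits, Psme1 and the counterparts measured. Up to 4 called members with the largest change in a comparison are named, some by their log2 fold change alone. Of other lists, up to 4 called genes are named. Neighbours of Psmb8 and Psmb9, Psmd2, Psmd8, Nfe2l1 and a few other genes were named after their values were seen. The members and lists were chosen with earlier results of these data known.

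The correlation of same-numbered arrays' deviations from group means lay between −0.15 and 0.29 among the genotype groups, was 0.29 for the neutrophils of both genotypes, and was −0.24 for GSK343 and vehicle. The labels tie no number to a shared culture or batch, so no replicate block was used in the main fit. Alternatives were a replicate block, fits within an array range or on the compared arrays, quantile normalization, median centring, leaving out dim rows, rows with 1 symbol only, an intensity trend with a robust prior, and leaving out each array.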

Additional observations from a re-analysis of the deposited data

Results flagged for a closer look

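The genotype difference was tested against differentiation stage, and it differed between undifferentiated cells and neutrophils for 3 of 46 members. Of all rows 2.77% passed in this direction, and of rows with a mean above background 6.12%. For the cap subunit gene Psmd7 the difference between Ezh2-null and wild type was 1.75 log2 units higher in neutrophils than in undifferentiated cells (SE 0.235, limma adjusted p = 0.00385). Its value was −0.20 in undifferentiated cells (adjusted p = 0.755) and 1.55 in neutrophils (adjusted p = 0.000415). For Psmg2, which encodes a chaperone of core assembly, it was 1.47 higher (SE 0.275, adjusted p = 0.0182), with 0.56 and 2.04 at the stages. That call was lost on the 8 genotype arrays alone (adjusted p = 0.0644), without either undifferentiated wild-type array (0.0557 and 0.0767) and without neutrophil array 2 labelled Ezh2-null (0.0696). For the cap chaperone gene Psmd9 it was 1.11 higher (SE 0.175, adjusted p = 0.00824), and wild-type neutrophils were not above background, so that this is no measured size. The neutrophil group concerned is the one whose Ezh2 signal was not lower than in wild type and in which erythroid and mast cell markers were high, and the part of those markers in these differences was not tested.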

How the results depend on the processing

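Each call is limited by having 2 arrays a group. The fall of members in wild-type differentiation stayed within 1.5 times of 35 under every alternative run, with 28 to 31 called when single arrays were left out. Leaving out single arrays gave 12 to 35 calls for differentiation with the Ezh2-null label, 1 to 5 for genotype in undifferentiated cells, 6 to 7 for genotype in neutrophils, 2 to 13 for the interaction and 1 to 3 for genotype against drug. In differentiation with the Ezh2-null label, 14 members were called with the 8 genotype arrays only and 6 with the 4 compared arrays. For genotype in undifferentiated cells the 4 compared arrays gave 0 calls by limma. For genotype in neutrophils 7 of 46 were called under a replicate block, 7 with the 8 genotype arrays only and 7 under an intensity trend with a robust prior, and Psmb8 and Psmb9 were not among them. The 4 compared arrays gave 10 calls, all higher, and rows with 1 symbol only gave 14, with 12 higher and 2 lower. For genotype against drug the replicate block gave 2 calls and the trend with a robust prior 1. The block changed no count of 3 in undifferentiated cells or in the interaction. A crossed pairing of GSK343 and vehicle arrays, added after seeing the data, called 0 members, as did every setting for GSK343. In the main fit for GSK343, 7 members had an unadjusted limma p under 0.05, as did 3963 of the 65956 rows tested. Taking the mean of all rows of a symbol was not run, because each member had 1 row, and Psmb8 could not be set against Psmb5.

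Small uncalled values changed sign, and the cause was not tested. On differentiation with the Ezh2-null label, Psme1 was −0.029 with quantile normalization. When single arrays were left out, it ranged from −0.34 to 0.47 there, with −0.13 without neutrophil array 2, and Psmb6 ranged from −0.66 to 0.042. For genotype in undifferentiated cells, the ranges were −0.17 to 0.53 for Psmb6, −0.28 to 0.79 for Psmb7, −0.50 to 0.12 for Psmb10 and −0.34 to 0.47 for Psme1, and their ends came from leaving out an Ezh2-null array. For genotype in neutrophils Psmb10 ranged from −0.38 to 0.10, and for GSK343 Psmb9 ranged from −0.072 to 0.19. The interaction ranged from −0.19 to 0.51 for Psmb6 and from −0.26 to 0.36 for Psmb10.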
